A study of Mus musculus with 2 samples.

Results

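The Pax genes encode transcription factors that bind DNA through a paired domain, in several of them together with a homeodomain, and that fix the identity of organ rudiments in the embryo. Pax2 and Pax8, which are close relatives, are among the earliest genes of the otic placode and act together in forming the inner ear. Other members of the family mark tissues that lie around the ear: Pax3 and Pax7 the dorsal neural tube and neural crest, Pax6 the eye and neural progenitors, and Pax1 and Pax9 the sclerotome and the endoderm of the pharyngeal pouches.

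Of 7 Pax genes considered, 6 had at least 1 probe set that named the gene alone in the platform annotation, and these 6 genes had 17 of the 45101 probe sets of the array. They were Pax1, Pax3, Pax6, Pax7, Pax8 and Pax9. Pax2 was not analysed here. The 6 are a small share of the 18194 genes that could be named. The genes were chosen by name, and all their probe sets were read.

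The signals came from 2 Affymetrix arrays, 1 for EGFP-positive cells and 1 for EGFP-negative cells, sorted from otocysts of mouse embryos at E10.5, about mid-gestation. The otocyst is the epithelial vesicle that becomes the inner ear. All cells of both groups came from embryos heterozygous for the transgene Tg(ETAR-EGFP)14Imeg, and no cells without the transgene were analysed here. Per the labels, EGFP lies mainly in the ventral and dorsomedial otocyst and is not expressed in the dorsolateral otocyst. The comparison sets the Pax signals of the sorted EGFP-positive cells against those of the EGFP-negative cells. It is not one between otocyst territories alone, since the EGFP-negative library also held markers of tissues around the otocyst. The EGFP-negative group is defined only by the absence of fluorescence, and the number of embryos pooled and the sequence that drives EGFP are not given in the sources used here. With 1 array per group there is no replicate, no test was possible, and each value below describes these 2 libraries.

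The EGFP-positive library had a median signal of 17.6, the EGFP-negative one of 20.6. A signal was called above the floor when it exceeded the 40th percentile of its array, which was 10.4 for EGFP-positive cells and 12.4 for EGFP-negative cells. The highest of 27 control probe sets for absent bacterial RNA reached 12.3 on the EGFP-positive array and 9.0 on the EGFP-negative array. The labels call both groups epithelial. Markers of otic epithelium were present in both libraries, and 10 of 13 measured markers were higher by 2-fold or more in EGFP-positive cells. Markers of mesenchyme, blood, endothelium and leukocytes were above the floor in the EGFP-negative library, with 11 of 12, 7 of 7, 10 of 10 and 8 of 8 measured genes higher by 2-fold or more there. Of these genes, 3, 3, 6 and 4 in that order passed the floor through the EGFP-negative library alone. A lower EGFP-positive value is built into their passing. Over all genes above the floor, 2.90% passed 2-fold towards EGFP-positive cells and 7.63% towards EGFP-negative cells.

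The start regions of Pax genes past the 2-fold limit are shown as the RefSeq annotation of GRCm38.p6 gives them, from 250 bases before to 50 bases after an annotated start, to set the sequence where transcription may begin beside the signals. The Pax8 window lies at chr2:24475550-24475849 on the minus strand and the Pax7 window at chr4:139832919-139833218 on the minus strand. Pax6 has a pair of windows, at chr2:105668646-105668945 and chr2:105682213-105682512, both on the plus strand. Pax3 has no window in the table used. Capitals mark a GC box (GGGCGG or its complement), a CCAAT box or an E-box (CANNTG).
Pax8: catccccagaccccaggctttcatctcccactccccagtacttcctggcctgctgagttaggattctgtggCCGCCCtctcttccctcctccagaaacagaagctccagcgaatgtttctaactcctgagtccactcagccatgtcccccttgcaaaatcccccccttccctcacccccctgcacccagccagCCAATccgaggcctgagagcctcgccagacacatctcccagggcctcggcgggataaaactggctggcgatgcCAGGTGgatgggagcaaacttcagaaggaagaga
Pax7: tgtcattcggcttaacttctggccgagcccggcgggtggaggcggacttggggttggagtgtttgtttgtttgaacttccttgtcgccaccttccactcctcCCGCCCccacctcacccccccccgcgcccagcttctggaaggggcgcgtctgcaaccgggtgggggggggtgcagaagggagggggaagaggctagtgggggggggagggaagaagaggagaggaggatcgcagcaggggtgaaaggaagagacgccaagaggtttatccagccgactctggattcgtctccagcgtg
Pax6, upstream window: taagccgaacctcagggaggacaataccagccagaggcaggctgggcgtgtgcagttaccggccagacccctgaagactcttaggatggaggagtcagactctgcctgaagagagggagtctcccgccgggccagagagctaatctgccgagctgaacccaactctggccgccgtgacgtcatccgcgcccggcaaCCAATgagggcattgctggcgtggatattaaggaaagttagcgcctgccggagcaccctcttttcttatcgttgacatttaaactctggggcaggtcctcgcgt
Pax6, downstream window: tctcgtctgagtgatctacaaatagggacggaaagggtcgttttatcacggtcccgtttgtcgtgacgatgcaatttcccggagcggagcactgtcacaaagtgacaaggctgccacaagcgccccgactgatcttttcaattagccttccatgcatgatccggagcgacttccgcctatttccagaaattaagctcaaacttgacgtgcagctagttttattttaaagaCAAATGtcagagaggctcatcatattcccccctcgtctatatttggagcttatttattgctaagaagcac

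The Pax8 window held 1 GC box, 1 CCAAT box and 1 E-box, and the Pax7 window held 1 GC box. The upstream Pax6 window held 1 CCAAT box and the downstream one 1 E-box. On both strands, the GC box occurs in 35.7%, the CCAAT box in 37.4% and the E-box in 72.3% of 32851 windows of the same length. The TATA box (TATAAA, in 13.6% of windows) and the paired domain core (GTCACGC, in 2.09%) were in none of these 4 windows. Neither was the palindromic site of paired-class homeodomains, which occurs in 0.390% of windows with 2 bases and in 0.487% with 3 bases between its arms. The Pax8 window had 7 CpG dinucleotides, the median over all windows being 7.0. The Pax7 window had 17, and the upstream and downstream Pax6 windows had 18 and 16.

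On the deposited scale Pax8 was the only measured Pax gene higher by 2-fold or more in EGFP-positive cells, a direction that turned when the otic epithelium genes were set to 0, whereas Pax3, Pax6 and Pax7 were higher by 2-fold or more in EGFP-negative cells. Pax9 differed by less than 2-fold, and Pax1 was at the floor in both libraries. Among all 13363 genes that exceeded the floor in either library, 2.90% passed the 2-fold limit towards EGFP-positive cells and 7.63% towards EGFP-negative cells. These are 388 and 1019 genes, against 503 and 823 after quantile normalization, and 19 and 11246 with the otic epithelium genes set to 0. Of the 5 Pax genes above the floor, 1 passed towards EGFP-positive cells and 3 towards EGFP-negative cells. Pax3, Pax6 and Pax7 passed the floor through the EGFP-negative library alone in the probe sets that stand for them, so that a lower EGFP-positive value is built into their passing, and nothing is read from the count itself.

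**Figure D1:**
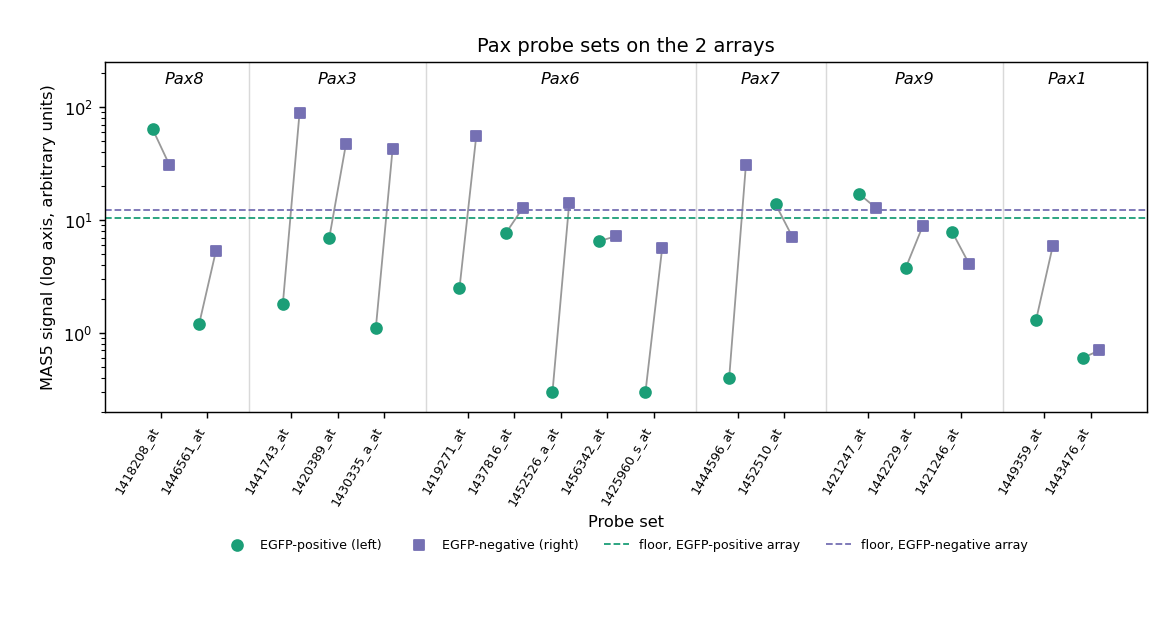
MAS5 signals (log axis, arbitrary units) of the 17 Pax probe sets in EGFP-positive cells (green circles, left) and EGFP-negative cells (purple squares, right), with 1 array each and no error bars; dashed lines are the floors of 10.4 and 12.4. All 3 Pax3 probe sets lie above the floor in EGFP-negative cells only, and 1 Pax8 probe set lies above the floor in both libraries.

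Pax8, the otic placode factor that also directs development of the thyroid, gave 64.1 in EGFP-positive cells, against 30.9 in EGFP-negative cells, at probe set 1418208_at. Both signals lay above the floor and above the highest bacterial control. The signal was thus 2.07-fold higher in EGFP-positive cells, a log2 ratio of 1.05, which became -0.31 with the otic epithelium genes set to 0. This ratio was within 0.053 of the 2-fold limit, less than the SD of 0.411 between probe sets of 1 gene at mean signals under 50 (950 genes). That SD is the only error the 2 arrays allow, and it leaves out differences between embryos, sorts and hybridisations. The ratio fell within 2-fold with the floor at the 60th percentile (0.77), with 16 added to every signal (0.77) and with the otic epithelium genes set to 0. Its second probe set, 1446561_at, had signals of 1.2 in EGFP-positive against 5.3 in EGFP-negative cells, both under the floors, and gives no direction.

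The Pax8 ratio lay close to those of otic epithelium genes. The 13 measured genes of the otic epithelium list had a median log2 ratio of 1.36, against 0.003 over all genes, and the Pax8 ratio minus that median was -0.31, smaller in size than the SD between probe sets. The adhesion gene Epcam had 1609.9 in EGFP-positive against 538.6 in EGFP-negative cells, and the tight junction gene Cldn6 had 1333.5 in EGFP-positive against 401.2 in EGFP-negative cells. The other Epcam probe set above the floor had a log2 ratio of 0.50, within 2-fold. Fbxo2, an ubiquitin ligase subunit gene of the otic epithelium, had 197.8 in EGFP-positive against 57.9 in EGFP-negative cells, and the LIM homeobox gene Lmx1a had 373.6 in EGFP-positive against 113.7 in EGFP-negative cells. The T-box gene Tbx1 was 1.47-fold higher in EGFP-positive cells. The otoconial protein gene Oc90 went the other way, with 939.8 in EGFP-positive against 1405.7 in EGFP-negative cells. In bulk RNA of sorted cells, fewer Pax8 cells and less Pax8 RNA per cell cannot be told apart.

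Genes that act with Pax factors in the placode, the sine oculis homeobox genes and the Eya and Dach cofactor genes, were next examined. Of 9 measured network genes, 3 were higher by 2-fold or more in EGFP-positive cells, none was higher by 2-fold or more in EGFP-negative cells and 6 differed by less. Over all genes above the floor, 2.90% passed 2-fold towards EGFP-positive cells and 7.63% towards EGFP-negative cells. The median log2 ratio of the 9 network genes was 0.70 (all genes, 0.003), and -0.65 with the otic epithelium genes set to 0. Six2, which encodes a homeodomain protein, had 390.5 in EGFP-positive against 100.7 in EGFP-negative cells. Of the Eya phosphatases and coactivators, Eya1 had 1664.7 in EGFP-positive against 578.3 in EGFP-negative cells, and its 3 probe sets had log2 ratios of 1.32 to 1.52. Eya4 had 363.9 in EGFP-positive against 104.9 in EGFP-negative cells, although its lowest probe set was at 0.95. The bright genes within 2-fold were Six4, with 434.8 in EGFP-positive against 266.8 in EGFP-negative cells, and the corepressor gene Dach1, with 343.2 in EGFP-positive against 352.9 in EGFP-negative cells. Of the 4 Six4 probe sets above the floor, the highest was past 2-fold, at 1.3. The Pax8 log2 ratio was 0.348 above the median of the 9 network genes.

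The genes of the lists whose log2 ratio lay nearest to that of Pax8, over 2 libraries only and among 151 candidates, were the Notch ligand gene Jag1 (1.09) and the neurogenic genes Neurod1 (0.98) and Neurog1 (1.14). Their probe sets ranged from 1.04 to 1.38, from 0.98 to 1.44 and from 0.46 to 1.14, in that order. The nearness thus depends on the probe set taken. All 3 genes belong to the ventral otocyst list, of whose 12 measured genes 10 were higher by 2-fold or more in EGFP-positive cells. Over all genes above the floor, 2.90% passed 2-fold towards EGFP-positive cells and 7.63% towards EGFP-negative cells. Of the 10 genes, 2 were bounds, both homeobox genes of the ventral otocyst. Otx2 had 225.5 in EGFP-positive against 3.2 in EGFP-negative cells, and Otx1 had 162.9 in EGFP-positive against 0.6 in EGFP-negative cells. Both passed the floor through the EGFP-positive library alone, so a lower EGFP-negative value is built into their passing. Emx2, a homeobox gene, had 100.5 in EGFP-positive against 12.7 in EGFP-negative cells, and the neurotrophin gene Bdnf 161.4 in EGFP-positive against 40.5 in EGFP-negative cells. The other Bdnf probe set above the floor was within 2-fold, at 0.88. Sox2, a prosensory factor gene, was 1.57-fold higher in EGFP-positive cells. In the dorsomedial list 2 of 8 genes were higher by 2-fold or more in EGFP-positive cells, Gbx2 (580.3 in EGFP-positive against 79.1 in EGFP-negative cells) and the Wnt-responsive Sp5 (98.7 in EGFP-positive against 37.7 in EGFP-negative cells). Another 2 were higher by 2-fold or more in EGFP-negative cells, Fgfr3 (35.3 in EGFP-positive against 202.2 in EGFP-negative cells) and Wnt3a (9.5 in EGFP-positive against 26.6 in EGFP-negative cells). The Wnt3a ratio is a bound, since its EGFP-positive signal lay under the floor and its direction is built into its passing. Within 2-fold, the Wnt ligand gene Wnt6 had 147.6 in EGFP-positive against 92.0 in EGFP-negative cells, and the Wnt target Axin2 had 114.3 in EGFP-positive against 132.9 in EGFP-negative cells. The other Wnt6 probe set above the floor was past 2-fold, at 1.45. In the dorsolateral list none of 10 was higher by 2-fold or more in EGFP-positive cells and 6 were in EGFP-negative cells. Msx2, a homeobox target of BMP signalling, had 93.0 in EGFP-positive against 322.5 in EGFP-negative cells, and Meis2, a TALE homeobox gene, had 301.7 in EGFP-positive against 1011.3 in EGFP-negative cells. Ntn1, which encodes a netrin, had 31.3 in EGFP-positive against 89.5 in EGFP-negative cells, and Bmp4 had 51.5 in EGFP-positive against 146.8 in EGFP-negative cells. The other probe set above the floor was within 2-fold for Ntn1 (log2 ratio -0.06) and for Msx2 (-0.47). With the median over probe sets, the dorsolateral list median was -0.87 in place of -1.11. The bright genes within 2-fold were the homeobox gene Dlx5, with 367.6 in EGFP-positive against 322.2 in EGFP-negative cells, and Lrig3, with 233.5 in EGFP-positive against 225.7 in EGFP-negative cells. The Pax8 log2 ratio lay within the ranges of the ventral (0.65 to 4.19), dorsomedial (-2.52 to 2.88) and otic epithelium (-0.58 to 1.77) lists, and the dorsolateral list reached 0.34.

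All 3 probe sets of Pax3 were higher by 2-fold or more in EGFP-negative cells. Pax3 is required for the dorsal neural tube, the neural crest and the precursors of limb and trunk muscle. Probe set 1441743_at had 1.8 in EGFP-positive against 89.7 in EGFP-negative cells. Probe set 1420389_at had 7.0 in EGFP-positive against 47.7 in EGFP-negative cells. Probe set 1430335_a_at had 1.1 in EGFP-positive against 42.3 in EGFP-negative cells. All 3 EGFP-positive signals lay under the floor, so that the differences are lower bounds of 8.63-fold, 4.59-fold and 4.07-fold, with EGFP-negative cells higher. Taken against the bacterial control of 12.3 in place of the floor, the same bounds were 7.29-fold, 3.88-fold and 3.44-fold. The sizes of these bounds follow the EGFP-negative signal and the floor, so Pax3, Pax6 and Pax7 cannot be ranked against each other.

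Pax7, the closest relative of Pax3, gave probe sets that disagreed. Probe set 1444596_at had 0.4 in EGFP-positive against 30.9 in EGFP-negative cells, a lower bound of 2.97-fold with EGFP-negative cells higher. Probe set 1452510_at had 13.8 in EGFP-positive against 7.1 in EGFP-negative cells, above the floor only in EGFP-positive cells and next to the bacterial control there. The brighter probe set stands for the gene, but the direction of Pax7 is carried by that probe set alone.

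Markers of the tissues in which Pax3 and Pax7 are usually found were read next, beginning with the dorsal neural tube. Of 11 measured dorsal neural tube genes, 9 were higher by 2-fold or more in EGFP-negative cells and none in EGFP-positive cells, with a median log2 ratio of -2.67. Their summed signal was 222.4 in EGFP-positive against 2669.9 in EGFP-negative cells, and none was listed at 0. Msx1 and Msx2 are also in the dorsolateral list and Wnt3a is also in the dorsomedial list, so these lists are not independent. Among the 11 genes, 7 did not exceed the EGFP-positive floor, so a lower EGFP-positive value is built into their passing. Nothing is read from the count, beside which 7.63% of all genes above the floor passed 2-fold towards EGFP-negative cells. Zic1, a zinc finger gene of dorsal neural tissue and mesenchyme, had 14.2 in EGFP-positive against 1523.2 in EGFP-negative cells, and Zic5 had 3.1 in EGFP-positive against 206.5 in EGFP-negative cells. Gdf10, which encodes a BMP family ligand, had 6.7 in EGFP-positive against 152.2 in EGFP-negative cells, and Olig3, a dorsal hindbrain progenitor gene, had 0.5 in EGFP-positive against 120.8 in EGFP-negative cells. Wnt1 had 3.1 in EGFP-positive against 16.8 in EGFP-negative cells, a bound under 2-fold, and Lmx1b had 17.2 in EGFP-positive against 22.1 in EGFP-negative cells. The part of neural tube RNA in the Pax3 and Pax7 values was not tested.

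The neural crest list divided. Of its 10 measured genes, 6 were higher by 2-fold or more in EGFP-negative cells and 3 in EGFP-positive cells, with a median of -1.90, and none was listed at 0. The summed signal was 2832.6 in EGFP-positive against 2582.5 in EGFP-negative cells. Foxd3 and Tfap2b passed the floor through the EGFP-negative library alone, so a lower EGFP-positive value is built into their passing. Over all genes above the floor, 7.63% passed 2-fold towards EGFP-negative cells and 2.90% towards EGFP-positive cells. Foxd3, a neural crest specifier gene, had 5.0 in EGFP-positive against 48.6 in EGFP-negative cells, and Tfap2b had 0.7 in EGFP-positive against 109.0 in EGFP-negative cells. Ednrb had 32.7 in EGFP-positive against 368.3 in EGFP-negative cells, and Ets1, which endothelium also expresses, had 39.3 in EGFP-positive against 378.2 in EGFP-negative cells. The 3 genes past 2-fold towards EGFP-positive cells were the neuregulin receptor gene Erbb3, with 1405.0 in EGFP-positive against 511.1 in EGFP-negative cells, the receptor gene Kit, with 266.6 in EGFP-positive against 103.3 in EGFP-negative cells, and Sox10, which is also in the otic epithelium list, with 889.3 in EGFP-positive against 403.7 in EGFP-negative cells. The lowest probe set above the floor was within 2-fold for Erbb3 (log2 ratio 0.977) and Sox10 (0.665), and past 2-fold for Kit (1.276). Sox8 had 25.3 in EGFP-positive against 22.1 in EGFP-negative cells. The part of neural crest RNA in the Pax3 value was not tested.

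The muscle regulators that accompany Pax3 and Pax7 in muscle precursors were not detected. Myf5, Myod1, Myog and Myf6 were under the floor in both libraries, the highest of these signals being 8.3 for Myod1 in EGFP-positive cells. Of 9 measured myogenic genes, 5 were above the floor, 1 of them higher by 2-fold or more in each direction, with a median of -0.58 and a summed signal of 162.6 in EGFP-positive against 163.2 in EGFP-negative cells. None was listed at 0. The receptor gene Met had 109.5 in EGFP-positive against 49.4 in EGFP-negative cells. The homeobox gene Meox2, also in the sclerotome list, had 5.6 in EGFP-positive against 27.4 in EGFP-negative cells, a bound. The other probe set above the floor was within 2-fold for Met (log2 ratio 0.85) and for Meox2 (-0.56). Each direction thus rests on 1 probe set of 1 gene. Lbx1, a homeobox gene of migrating muscle precursors and dorsal interneurons, had 13.3 in EGFP-positive against 19.7 in EGFP-negative cells, and Msc had 21.3 in EGFP-positive against 31.8 in EGFP-negative cells.

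Pax6, a regulator of eye and neural progenitor development, was above the floor in EGFP-negative cells at 3 of its 5 probe sets and in EGFP-positive cells at none. Probe set 1419271_at had 2.5 in EGFP-positive against 55.5 in EGFP-negative cells, a lower bound of 5.34-fold with EGFP-negative cells higher. Probe set 1452526_a_at had 0.3 in EGFP-positive against 14.2 in EGFP-negative cells. Probe set 1437816_at had 7.7 in EGFP-positive against 12.8 in EGFP-negative cells. The last 2 exceeded the EGFP-negative floor of 12.4 by little, and their bounds were 1.37-fold and 1.23-fold. Probe sets 1425960_s_at and 1456342_at were under the floor in both libraries, with 0.3 and 6.5 in EGFP-positive and 5.7 and 7.2 in EGFP-negative cells. All 5 were numerically lower in EGFP-positive cells, but the difference of Pax6 past 2-fold rests on 1 probe set.

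Hindbrain progenitor genes, among which Pax6 is normally expressed, were split by level. Of 12 measured genes, 4 were at the floor in both libraries, namely Nkx2-2, Nkx6-2, Olig2 and Dbx2. Of the other 8, 5 were higher by 2-fold or more in EGFP-negative cells and 1, the Iroquois gene Irx3, in EGFP-positive cells, with a median of -1.99. Among these 8 genes, 5 passed the floor through the EGFP-negative library alone, so a lower EGFP-positive value is built into their passing. Nothing is read from the count. Fabp7, a fatty acid binding protein gene of neural progenitors that Pax6 controls in the rodent brain, had 15.2 in EGFP-positive against 602.0 in EGFP-negative cells. The neural progenitor gene Sox1 had 0.2 in EGFP-positive against 58.1 in EGFP-negative cells, and the Notch target Hes5 had 3.7 in EGFP-positive against 90.9 in EGFP-negative cells. Nkx6-1 had 3.6 in EGFP-positive against 12.7 in EGFP-negative cells, and Egr2, a gene of hindbrain rhombomeres, had 35.0 in EGFP-positive against 40.2 in EGFP-negative cells. The summed signal was 1772.4 in EGFP-positive against 1283.0 in EGFP-negative cells, of which Irx3 alone gave 1700.5 in EGFP-positive against 372.4 in EGFP-negative cells, and no gene was listed at 0. The part of hindbrain RNA in the Pax6 value was not tested.

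Of the eye list, the lens genes Foxe3 and Cryaa and the eye field gene Rax were under the floor in both libraries. Of 5 genes above the floor, 3 were higher by 2-fold or more in EGFP-negative cells, with a median of -1.30, a summed signal of 48.7 in EGFP-positive against 201.4 in EGFP-negative cells over the 8 measured genes, and none listed at 0. These 3 genes passed the floor through the EGFP-negative library alone, so a lower EGFP-positive value is built into their passing. Nothing is read from the count. The 3 were Lhx2, with 5.6 in EGFP-positive against 97.4 in EGFP-negative cells, Mab21l1 with 1.8 in EGFP-positive against 34.5 in EGFP-negative cells, and Cryab, a small heat shock protein gene, with 5.5 in EGFP-positive against 25.6 in EGFP-negative cells. Six3 had 18.8 in EGFP-positive against 19.2 in EGFP-negative cells, and Prox1 had 13.1 in EGFP-positive against 19.8 in EGFP-negative cells.

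Pax9 and Pax1, the paralogues of the sclerotome and pharyngeal pouches, were at or near the floor. At probe set 1421247_at Pax9 had 17.0 in EGFP-positive against 12.8 in EGFP-negative cells, 1.33-fold higher in EGFP-positive cells but lower there (log2 ratio -0.95) with the otic epithelium genes set to 0. Its log2 ratio of 0.41 was no larger than the SD of 0.411 between probe sets at this level. Probe set 1421246_at had 7.8 in EGFP-positive against 4.1 in EGFP-negative cells, and 1442229_at had 3.8 in EGFP-positive against 8.8 in EGFP-negative cells, all under the floors and in opposite directions. The list genes nearest to Pax9 in log2 ratio, over 2 libraries, were Dcn (0.45), Dlx6 (0.34) and Sox9 (0.48), which fall into different lists. Pax1 had 1.3 in EGFP-positive against 5.9 in EGFP-negative cells at probe set 1449359_at and 0.6 in EGFP-positive against 0.7 in EGFP-negative cells at 1443476_at, all below the bacterial controls, so it was not detectable here.

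Of the genes above the floor that accompany Pax1 and Pax9 outside the ear, most were higher by 2-fold or more in EGFP-negative cells. However, 4 of 6 sclerotome and 4 of 5 pharyngeal endoderm genes passed the floor through the EGFP-negative library alone. A lower EGFP-positive value is built into their passing, and nothing is read from these counts. Of 6 sclerotome genes above the floor, 4 were higher by 2-fold or more in EGFP-negative cells and none in EGFP-positive cells, with a median of -1.44, a summed signal of 110.8 in EGFP-positive against 693.8 in EGFP-negative cells and no gene at 0. The forkhead genes Foxc2 and Foxc1, which mesenchyme also expresses, had 10.1 and 43.1 in EGFP-positive cells and 139.9 and 357.3 in EGFP-negative cells, in that order of genes. Tbx18, a T-box gene of periotic mesenchyme, had 49.0 in EGFP-positive against 136.5 in EGFP-negative cells. Uncx, a homeobox gene of the caudal sclerotome, had 0.7 in EGFP-positive against 12.6 in EGFP-negative cells, and Meox1 had 1.7 in EGFP-positive against 17.9 in EGFP-negative cells. Nkx3-2, a target of Pax1 and Pax9 in the sclerotome, was under the floor in both libraries. Of 5 pharyngeal endoderm genes above the floor, 3 were higher by 2-fold or more in EGFP-negative cells, with a median of -1.53, a summed signal of 60.9 in EGFP-positive against 188.4 in EGFP-negative cells and no gene at 0. They were Hhex, with 8.9 in EGFP-positive against 51.3 in EGFP-negative cells, Sox17 with 4.6 in EGFP-positive against 39.3 in EGFP-negative cells, and Shh, which encodes the hedgehog ligand, with 19.2 in EGFP-positive against 55.5 in EGFP-negative cells. The other Sox17 probe set above the floor was within 2-fold, at -0.85. With probe sets marked _x_at or _s_at left out, the endoderm list median was -0.965. Hhex and Sox17 are also genes of endothelium. Foxa2 had 9.9 in EGFP-positive against 20.3 in EGFP-negative cells, and Foxa1 had 4.0 in EGFP-positive against 15.6 in EGFP-negative cells.

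Most markers of periotic mesenchyme, erythroid cells, endothelium and leukocytes were also higher in EGFP-negative cells. The periotic mesenchyme list had a median of -3.84 and a summed signal of 448.0 in EGFP-positive against 6312.6 in EGFP-negative cells. The collagen gene Col3a1 had 135.5 in EGFP-positive against 2733.0 in EGFP-negative cells, and the mesenchymal regulators Prrx1, Twist1 and Twist2 had 17.5, 11.5 and 7.5 in EGFP-positive against 479.9, 266.5 and 194.0 in EGFP-negative cells. Dcn, a proteoglycan gene, had 41.9 in EGFP-positive against 30.7 in EGFP-negative cells. The erythroid median was -5.16, and the heme gene Alas2 had 5.9 in EGFP-positive against 576.5 in EGFP-negative cells. The endothelial median was -2.24, and Cldn5 had 2.2 in EGFP-positive against 135.7 in EGFP-negative cells. The leukocyte median was -2.77, and the macrophage receptor gene Csf1r had 18.3 in EGFP-positive against 607.1 in EGFP-negative cells. Of the 3 Csf1r probe sets above the floor, the one least apart had a log2 ratio of -0.59, within 2-fold. No measured gene of these 4 lists was listed at 0. Some passed the floor through the EGFP-negative library alone, namely 3 of 12 mesenchyme, 3 of 7 erythroid, 6 of 10 endothelial and 4 of 8 leukocyte genes. A lower EGFP-positive value is built into the passing of these genes.

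**Figure D2:**
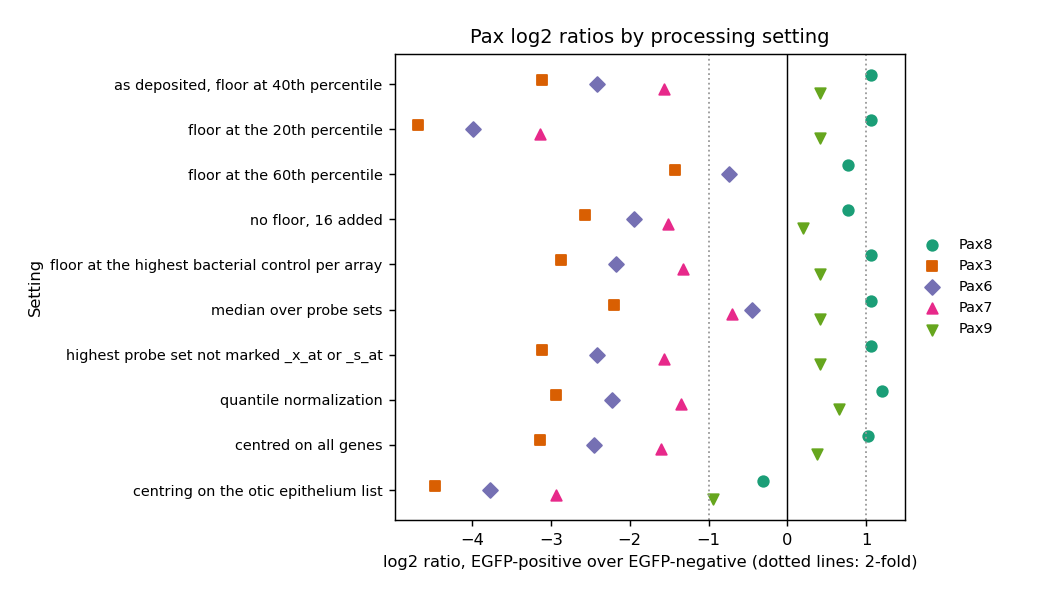
The log2 ratio of EGFP-positive over EGFP-negative signal of 5 Pax genes (symbols by gene) under the setting used in the text (top row) and 9 other settings, with dotted lines at 2-fold; Pax7 and Pax9 have no value with the floor at the 60th percentile, where they were at the floor in both libraries. Pax3 stays past -1 in every setting, whereas Pax8 lies at -0.31 after centring on the otic epithelium list.

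The order of Pax3, Pax6 and Pax7 on one side and Pax8 on the other was compared under 9 other settings of floor, probe set and scaling. Pax3 ranged between -4.68 and -1.43 and was past 2-fold in each. Pax6 was within 2-fold with the floor at the 60th percentile (-0.74) and with the median over probe sets (-0.45). Pax7 was within 2-fold with the median over probe sets (-0.71). Pax8 was within 2-fold in 3 of the 9 settings, at 0.77 with the floor at the 60th percentile, at 0.77 with 16 added to every signal and at -0.31, its sign turned, when the otic epithelium list was set to 0.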

How the data were processed

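The values deposited by the authors are intensities, 1 MAS5 signal per probe set, never logged. The submitters' processing notes name MAS5 (version 5.0), and each array's trimmed mean (2% left out at each end) was 100.0. Scaling target and detection calls were not used here. Of 45101 probe sets, 34958 named 1 gene, 932 several and 9211 none in the platform annotation; symbols were updated by gene identifier (GRCm38.p6 RefSeq table).

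Signals were raised to the 40th percentile of their array. The log2 ratio is EGFP-positive over EGFP-negative, taken at the gene's probe set of highest mean signal over both arrays. Where 1 signal was at the floor, the ratio is a bound. Genes under the floor on both arrays have no ratio. There was no test, with 1 array per group, and the number of arrays limits the precision.

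The Pax genes and the 18 lists (187 entries, 13 without a probe set for that gene alone) were chosen with earlier results of these data known. Named list genes are at most 4 with the largest ratio past 2-fold and at most 2 bright ones within it. Sox10, Erbb3, Kit and the genes named as under the floor were named after their values were seen. The 3 list genes nearest in log2 ratio were named for Pax8 and Pax9. Alternatives covered floor, probe set choice and scaling. The procedure was tested on simulated data, with changes put only into genes of higher mean signal than any Pax probe set. That test did not cover changes near the floor, where most Pax signals lie. Python 3.11.15, pandas 2.3.3 and numpy 2.4.6 were used.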

Additional observations from a re-analysis of the deposited data

How the results depend on the processing

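The count of Pax genes higher by 2-fold or more in EGFP-positive cells, 1 (Pax8), became 0 when the floor was the 60th percentile, 0 with 16 added to every signal in place of a floor, and 0 after centring on the otic epithelium list, where the log2 ratio of Pax8 was -0.31. The count higher by 2-fold or more in EGFP-negative cells, 3, became 1 (Pax3) with the floor at the 60th percentile and 1 (Pax3) with the median over probe sets. With the higher floor fewer genes pass, and 3 Pax genes lay above it. Over all genes, centring on the otic list left 19 genes past 2-fold towards EGFP-positive cells and 11246 towards EGFP-negative cells. Counted the same way, adding 16 gave 238 and 647, the 60th percentile floor 237 and 478, and the 20th percentile floor 711 and 1954. Quantile normalization kept the calls of Pax8, Pax3, Pax6 and Pax7. Of 18 list medians, 13 were below 0, the cofactor list only at -0.03, and 12 to 16 under the alternatives. Their sizes depended on the floor. With the 60th percentile floor, and also with 16 added, 10 medians moved by at least 0.315, the SD between probe sets over all genes, and 8 did not. The 60th percentile floor gave the myogenic list 1.15, the hindbrain list -0.32, the pharyngeal endoderm list -0.62 and the leukocyte list -1.10. No paired analysis was possible because each group has 1 array. Signals near the floor, which hold most Pax probe sets, limit the size of each ratio.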

Other observations

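Proteins that bind Pax factors were encoded by genes within 2-fold between the libraries. None of 12 measured cofactor genes differed by 2-fold, with a median log2 ratio of -0.03 and a range of -0.18 to 0.72. Over all genes, 2.90% passed 2-fold towards EGFP-positive and 7.63% towards EGFP-negative cells. Most genes thus lay within 2-fold, and nothing particular to the cofactors is read from this count. The Groucho corepressor gene Tle4 had 558.2 in EGFP-positive against 339.2 in EGFP-negative cells, with its probe sets between 0.11 and 0.72, and Tle3 had 419.2 in EGFP-positive against 455.0 in EGFP-negative cells.

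Genes known to lie downstream of Pax2 or Pax8 in kidney or thyroid were split. Of 9 measured, 3 were at the floor in both libraries, among them the thyroglobulin gene Tg, and the other 6 had a median of 0.24, 2 of them past 2-fold towards EGFP-positive cells and 1 towards EGFP-negative cells. Gata3, which encodes a zinc finger factor of kidney and ear, had 201.7 in EGFP-positive against 65.4 in EGFP-negative cells. The growth factor gene Gdnf had 44.0 in EGFP-positive against 11.2 in EGFP-negative cells, 11.2 being under the floor, whereas its receptor gene Ret had 28.9 in EGFP-positive against 126.0 in EGFP-negative cells. Wnt4 had 50.5 in EGFP-positive against 43.0 in EGFP-negative cells, and the LIM homeobox gene Lhx1 had 21.6 in EGFP-positive against 24.0 in EGFP-negative cells.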
